A study of Mus musculus with 6 samples.

Results

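Spinal cord of G93A-SOD1 mice was compared between 75 and 110 days of age, using the 2 arrays of this genotype among the 6 arrays of the study. All 12422 probe sets other than the 66 Affymetrix controls were compared, out of 12488 in the file. The mice carry superoxide dismutase 1 with the G93A change, which occurs in inherited amyotrophic lateral sclerosis (ALS). Their strain reads B6SJL-G93A-SOD1 on the 75 day label and B6SJL-G93A-SOD1H on the 110 day label. The submitters describe them as presymptomatic at 75 days and as having tremor and partial paralysis at 110 days. The spread with age came from cords without disease, which were nontransgenic (NM) B6SJL mice and mice with a wild-type SOD1 transgene (WT-SOD1), each at 75 and 110 days. WT-SOD1 mice showed no disease phenotype at either age. Their strain is given only for the 75 day array, as B6SJL-WT-SOD1. The sex of the mice, the promoter of the transgenes and the level of the cord are not given in the sources used here. Each array carried poly(A) RNA from 4 pooled spinal cords and was hybridised and scanned once, so every genotype and age is 1 measurement and no spread between animals of 1 group can be seen.

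In ALS, motor neurons of the spinal cord and brain degenerate, and the glial cells around them react. Microglia, the resident macrophages of the nervous system, take on a phagocytic state with high expression of lysosomal, complement and lipid-handling genes. Astrocytes react with changes in the cytoskeleton and in secreted protease inhibitors and calcium-binding proteins. In a bulk sample such as this, more cells of a type and more RNA per cell cannot be told apart, nor can fewer cells and less RNA per cell.

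The 6 arrays were alike in overall level. Median intensity lay between 77.7 and 80.9, and 24.6% to 25.9% of probe sets per array lay at or under 31, the floor to which low values were raised before taking log2. The bacterial spike-in controls averaged 254 (75 days) and 291 (110 days) in G93A-SOD1 cord and 273 to 608 in disease-free cord. The 3' to 5' ratio of Gapdh, a measure of RNA integrity, was 1.49 and 1.30 on the G93A-SOD1 arrays and 1.08 to 1.27 on the others, and that of actin was 1.998 and 1.904 against 1.69 to 2.39. The part of these values in the results was not tested. Sod1 itself, read by 1 probe set, gave 1738 at 75 days and 1716 at 110 days in G93A-SOD1 cord. It gave 1037 and 1498 in NM and 1583 and 1906 in WT-SOD1 cord at the same ages. On this probe set the mutant cords thus read almost the same at both ages, with a log2 difference of -0.02 ± 0.26 SE (limma, adjusted p = 0.994). NM cord has no transgene and gave a signal there too, and whether the probe set reads the transgene was not tested. The level of the mutant transgene is therefore not known from it.

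Between 75 and 110 days the change in G93A-SOD1 cord went mostly upward. Counting log2 differences of floored intensities without a test, 92 of 12422 probe sets were at least 2-fold higher at 110 days (0.741% of all) and 6 at least 2-fold lower (0.0483%). In NM cord the same counts were 6 higher (0.0483%) and 8 lower (0.0644%), and in WT-SOD1 cord 18 higher (0.145%) and 8 lower (0.0644%). At 3-fold, 27 probe sets (0.217%) were higher and 0 (0%) lower in G93A-SOD1 cord, beside 2 (0.0161%) and 3 (0.0242%) in NM and 6 (0.0483%) and 6 (0.0483%) in WT-SOD1 cord. At 4-fold, 15 probe sets (0.121%) were higher and 0 (0%) lower in G93A-SOD1 cord. The disease-free genotypes had 1 higher (0.00805%) and 1 lower (0.00805%) in NM, and 4 higher (0.0322%) and 5 lower (0.0403%) in WT-SOD1 cord at that size. At 1.5-fold the counts lay closer, with 296 higher in G93A-SOD1 (2.38%), 142 in NM (1.14%) and 63 in WT-SOD1 cord (0.507%). Lower at that size were 70 (0.564%), 41 (0.33%) and 37 (0.298%), in the same order. By gene, using the brightest probe set of each, 67 of 8251 were at least 2-fold higher (0.812%) and 4 lower (0.0485%) in G93A-SOD1 cord. The standard deviation of the log2 difference over the 6737 tested probe sets was 0.31 in G93A-SOD1, 0.25 in NM and 0.23 in WT-SOD1 cord. Single differences ran from -1.28 to 3.12 in G93A-SOD1, from -2.28 to 2.13 in NM and from -5.81 to 3.26 in WT-SOD1 cord. The largest rise and the largest fall of a single tested probe set were thus both in WT-SOD1 cord.

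**Figure D1:**
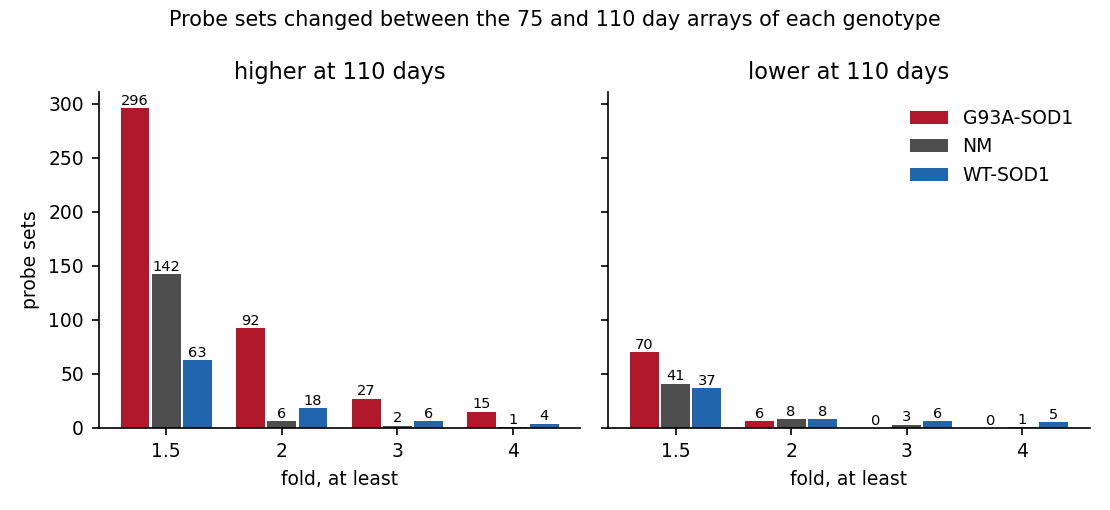
Number of probe sets, of 12422, that were higher (left) or lower (right) at 110 than at 75 days by at least the fold size on the x axis, for each genotype. Each bar compares 1 pair of arrays. G93A-SOD1 cord has 92 probe sets at least 2-fold higher and 6 lower, and the 3 genotypes have like numbers of lower ones at 2-fold.

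The G93A-SOD1 difference was then tested with limma against the age differences of NM and WT-SOD1 cord, which gave the only 2 residual degrees of freedom. A p-value here therefore says how a difference compares with a spread drawn from the changes between these ages in cords without disease. That spread rests more on the value shared by all tested probe sets (7.70 prior degrees of freedom) than on each probe set's own changes. It does not measure variation among G93A-SOD1 mice. Of 6737 tested probe sets, 79 rose (1.17%) and 2 fell (0.0297%) at a Benjamini-Hochberg adjusted p under 0.05. At an unadjusted p under 0.05 there were 441 higher and 178 lower. By gene, 61 of 5199 rose (1.17%) and 2 fell (0.0385%). The rises of the 79 probe sets ran from 1.88-fold to 8.67-fold with a median of 2.59-fold, and 74 were at least 2-fold. Of these 79, 27 entered the test only because the 110 day G93A-SOD1 array lay above the level filter, so they had to be higher there. Of the 61 genes that rose, 18 are of this kind. Their calls are no independent evidence of a rise, and for those described below the p-value is left out. With a filter that ignores that array, 43 probe sets rose. Of the 27 calls among the named genes, 12 were lost with the floor at the 40th percentile (C1qb, S100a6, Ctss, Abca1, Igfbp2, Ifit3, Lgals3, H2-K1, Gabrg1, Clu, Dao and Coasy) and 8 with arrays scaled to 1 median (Ctsz, Abca1, Igfbp2, H2-K1, Gabrg1, Clu, Dao and Coasy). With no filter on level, 47 probe sets rose and 54 fell, and 25 of the 27 calls were lost, all but those of Lgals3 and Emp1. Lgals3 lay under the floor on every disease-free array, so flooring set both its disease-free differences to 0. Its SE is therefore the smallest of the main fit and holds no spread of its own. Of the 61 genes that rose, 14 have more than 1 probe set, and for 9 of these another, dimmer probe set had a log2 difference of 0 (Cd68, Csf1r, Hexa, Lyz2 and Mpeg1) or below 0 (C1qb, Grn, Man2b1 and S100a10). A difference of exactly 0 is what values raised to the floor on both G93A-SOD1 arrays give, and a change cannot be seen there.

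**Figure D2:**
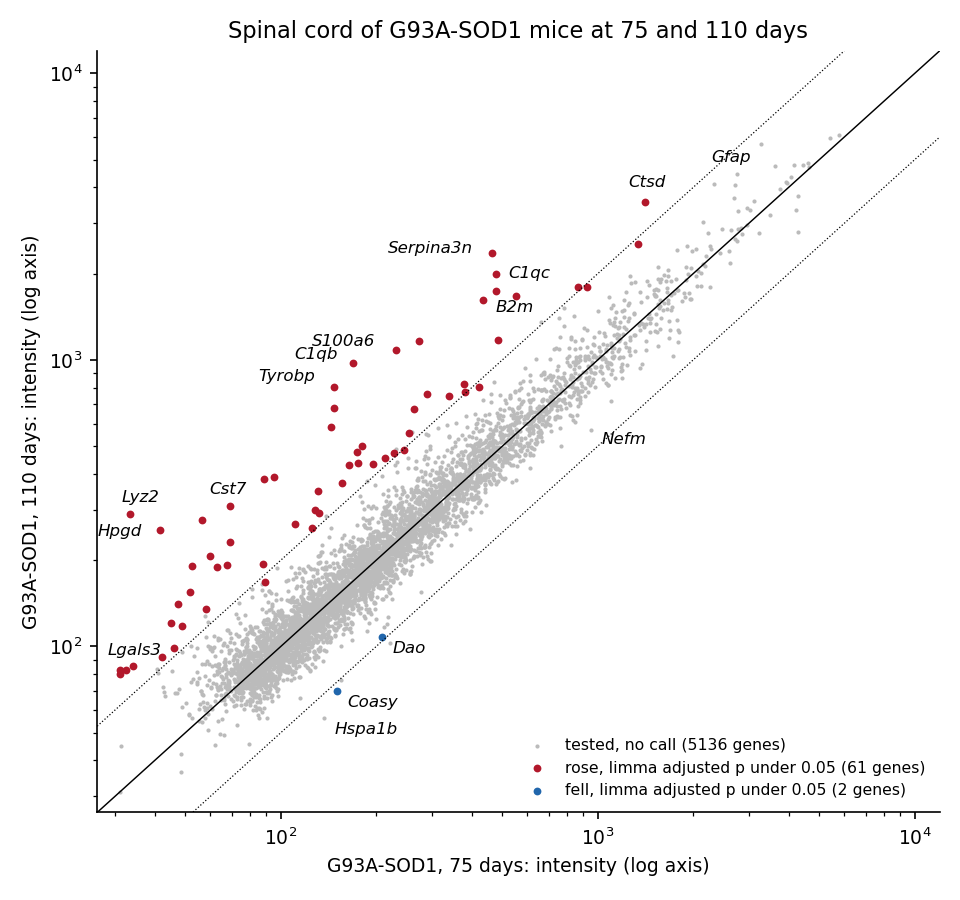
Intensity of each tested gene in G93A-SOD1 cord at 75 days (x) and 110 days (y), both on log axes, 1 array each. Values under 31 are drawn at 31. The solid line marks equal values, the dotted lines 2-fold. The 61 genes that rose lie between Rhoj and Lgals3, both at the floor at 75 days, and Ctsd, which read 1412 and 3571. At 110 days 18 genes were brighter than these, none of them called. The 2 genes that fell are Dao and Coasy.

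Microglial and macrophage genes were among those with the largest rises. Lyz2, encoding lysozyme, a bacteriolytic enzyme of macrophages, read 33.4 at 75 days and 290 at 110 days in G93A-SOD1 cord, against 31.4 and 33.7 in NM and 34.7 and 48.7 in WT-SOD1 cord. Only the 110 day mutant array was high, and the other 5 lay near the floor. The rise was 8.67-fold (log2 difference 3.12 ± 0.24 SE), and Lyz2 entered the test only through the 110 day mutant array. Tyrobp, the signalling adaptor of several microglial receptors, read 147 and 806 in G93A-SOD1, 115 and 140 in NM, and 119 and 164 in WT-SOD1 cord. At 75 days the mutant cord was within the disease-free range, and at 110 days it lay far above it (2.46 ± 0.25 SE, limma adjusted p = 0.00114). Mpeg1, which encodes a pore-forming protein of macrophages, read 147 and 680 in G93A-SOD1, 128 and 141 in NM, and 154 and 155 in WT-SOD1 cord, and rose 4.62-fold (adjusted p = 0.000614). Cd52, a small surface glycoprotein of leukocytes, rose from 88.8 to 385, with 74.7 to 81.4 on the disease-free arrays. Cd68, a lysosomal glycoprotein of macrophages, rose from 95.0 to 390, with 72.1 to 83.4 there. These last 2 genes lay slightly above the disease-free range already at 75 days.

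Of the 29 genes of the microglia and macrophage list on the array, 21 were tested, 5 of them only through the 110 day mutant array. Of these 21 genes 10 rose (2 of those 5 among them) and 0 fell, beside the 1.17% of all tested genes that rose. The list median over all 29 was a log2 difference of 0.40 in G93A-SOD1 cord, -0.00 in NM and 0.08 in WT-SOD1 cord, while the median over all 8251 genes was 0.00 in G93A-SOD1 cord. The summed intensity of the list was 3544 at 75 days, inside the disease-free range of 3320 to 3742, and 8355 at 110 days. Csf1r, the receptor for the survival factor of microglia, rose from 264 to 672 (1.35 ± 0.21 SE, adjusted p = 0.0119), and Ly86, a partner of a toll-like receptor homologue, from 67.5 to 192. Other members of the list had smaller differences. Cx3cr1, the fractalkine receptor of microglia, read 127 and 166 (log2 difference 0.39), Spi1, encoding the myeloid transcription factor PU.1, 81.6 and 111 (0.45), and Itgam, the CD11b chain, 50.01 and 55.97 (0.16, not tested), and none of these 3 passed. Ptprc, Fcer1g and Msr1 were at the floor on both G93A-SOD1 arrays.

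The genes for the 3 chains of C1q, the recognition molecule of the classical complement pathway, rose between 4.18-fold and 5.75-fold. C1qa read 274 and 1162 in G93A-SOD1, 237 and 260 in NM, and 232 and 293 in WT-SOD1 cord. C1qb read 169 and 973 in G93A-SOD1, 127 and 200 in NM, and 132 and 180 in WT-SOD1 cord. C1qc read 476 and 1993 in G93A-SOD1, 404 and 472 in NM, and 407 and 460 in WT-SOD1 cord. In each case the 110 day mutant array stood apart from the other 5, and every disease-free pair was itself higher at 110 days, by at most 0.66 on the log2 scale. The rises were 4.25-fold (adjusted p = 0.00114), 5.75-fold (0.00397) and 4.18-fold (0.000918) by limma. The C1qb call was lost with the floor at the 40th percentile. A second, dimmer probe set for C1qb went the other way, with a log2 difference of -0.51.

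Of 15 complement genes on the array, 9 were tested, 4 rose and 0 fell. The fourth riser was Clu, encoding clusterin, a secreted chaperone and complement inhibitor, which read 928 and 1795 in G93A-SOD1 cord and 964 to 1031 on the disease-free arrays (0.95 ± 0.18 SE, adjusted p = 0.0319). The Clu call was also lost with quantile normalization and with an intensity trend in the fit. Serping1, the C1 inhibitor, read 97.1 and 187 but did not pass (adjusted p = 0.0641). Among the 9 tested genes there was no other riser, and those not tested could give none. C2 read 61.7 and 57.75, and factor B (Cfb) 85.5 and 66.35. The median over the 15 genes was 0.00.

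Lysosomal genes and genes known from phagocytic, disease-associated microglia formed the list with the highest median. Of 38 on the array, 31 were tested (5 only through the 110 day mutant array), 16 rose (4 of those 5 among them) and 0 fell, and the median over the 38 was 0.82, against 0.05 in NM and 0.02 in WT-SOD1 cord. Ctsz, encoding cathepsin Z, read 56.4 and 277 in G93A-SOD1, 47.3 and 77.0 in NM, and 48.4 and 67.2 in WT-SOD1 cord, and rose 4.92-fold (2.30 ± 0.32 SE). Cst7, encoding cystatin F, an inhibitor of cysteine cathepsins, read 69.1 and 309 in G93A-SOD1, 57.8 and 50.9 in NM, and 56.0 and 65.9 in WT-SOD1 cord, a rise of 4.47-fold. Both entered the test only through the 110 day mutant array. Ctss, encoding cathepsin S, which trims the class II invariant chain, rose from 477 to 1736. The rises of the other cathepsins were smaller, with Ctsd at 2.53-fold, Ctsh at 2.42-fold, Ctsl at 2.08-fold and Ctsb at 1.89-fold.

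The same list held Lgals3, encoding galectin-3, which was under the floor of 31 on 5 arrays and read 82.8 on the 110 day G93A-SOD1 array. Its 2.67-fold rise (1.42 ± 0.18 SE) is relative to that floor, and it too was tested only through that array. With all its disease-free values raised to the floor, this SE holds no spread of its own. The log2 difference was 2.34 with the floor at the 10th percentile and 0.55, without a call, at the 40th. Lgals1, encoding galectin-1, rose from 289 to 762, and Grn, encoding the lysosomal protein progranulin, from 164 to 429. Further risers were the lysosomal hydrolases Gusb (2.42-fold, tested only through the 110 day mutant array), Man2b1 (2.22-fold) and Hexa (2.06-fold), the protective protein Ctsa (1.98-fold), and the tetraspanins Cd9 (2.50-fold) and Cd63 (2.18-fold). Apoe, encoding the main lipid carrier of the nervous system, read 3285 and 5667 and did not pass (0.79). Lpl, encoding lipoprotein lipase, was too dim to be tested, reading 22.1 and 63.1. Other members of the list differed little, such as Psap, the precursor of the saposins, at 0.07, Npc1, a lysosomal cholesterol transporter, at 0.10, and Fabp5 at 0.09. Igf1 read 611 and 468 (-0.39).

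**Figure D3:**
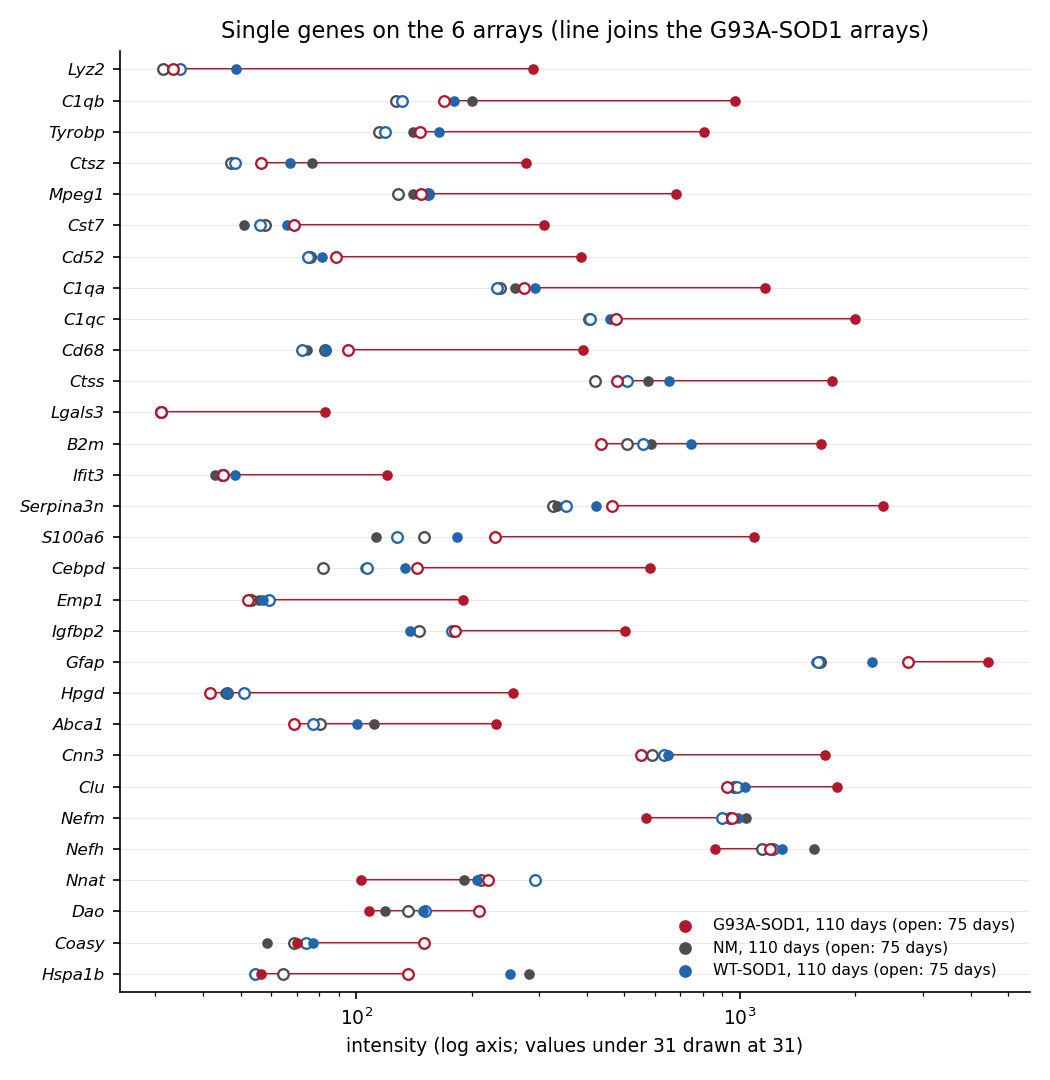
Intensity (log axis) of 30 genes on the 6 arrays; a filled circle is the 110 day array and an open circle the 75 day array of a genotype, and a line joins the G93A-SOD1 pair. For Lyz2 and the genes down to Cd68, the 110 day G93A-SOD1 array lies alone to the right of the other 5 arrays, while for Hspa1b the NM and WT-SOD1 arrays at 110 days, at 282 and 252, lie to the right.

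Antigen presentation and interferon genes had fewer risers. B2m, the invariant light chain of class I molecules, read 436 and 1622 in G93A-SOD1, 508 and 587 in NM, and 558 and 744 in WT-SOD1 cord. At 75 days it was the lowest of all 6 arrays and at 110 days the highest, with a rise of 3.72-fold (1.90 ± 0.23 SE, adjusted p = 0.00397). The class I heavy chain gene H2-K1 rose from 340 to 746, with 322 to 453 on the disease-free arrays (adjusted p = 0.0474). Its probe set can cross-hybridise among the class I genes. The H2-K1 call was also lost with quantile normalization, with an intensity trend in the fit and with the filter that ignores the 110 day mutant array. It was lost as well with the spread from NM against WT-SOD1 cord of the same age or from all disease-free arrays. Of 17 antigen presentation genes, 15 were tested (2 only through the 110 day mutant array), 2 rose and 0 fell, with a median of 0.27. The class II genes H2-Aa and H2-Eb1 had differences of 0.16 and -0.25, and the class II chaperone Cd74 one of 0.24. In the interferon response list, 7 of 22 genes were tested (2 only through the 110 day mutant array) and 1 rose. This was Ifit3, 1 of those 2, which rose from 44.9 to 121, with 42.9 to 48.2 on the disease-free arrays (2.68-fold). Of the 22, 15 were higher and 1 lower, with a median of 0.32, or 0.03 with the floor at the 40th percentile. At least 2-fold higher were 3 of the 22, Ifit3 among them, beside 67 of all 8251 genes (0.812%). The G93A-SOD1 difference lay above 0 and above both disease-free differences for 68.2% of them and 76.5% of the antigen presentation genes, beside 23.3% of all genes. Of 30 cytokine, chemokine and receptor genes, 8 were tested and 0 rose or fell, with 5 higher and 1 lower at an unadjusted limma p under 0.05, beside 335 higher and 128 lower of all 5199 tested genes. The 1 gene of this list at least 2-fold higher was Osmr, which was too dim to be tested. It read 19.3 and 75.2 in G93A-SOD1 cord and 18.9 to 21.4 on the disease-free arrays. Its 2.43-fold rise is relative to the floor of 31. Il1b, Il6, Ccl2 and Cxcl10 were under the floor on both G93A-SOD1 arrays, so a change there could not be seen.

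Upstream sequence was read for the genes that rose, because several belong to the targets of interferon and of PU.1. In the RefSeq promoter table (build GRCm38.p6), 47 of the 61 genes that rose had at least 1 window of 250 bases before to 50 bases after a start. The interferon-stimulated response element was searched as GAAA, any 2 bases and GAAA, and the PU.1 site as GAGGAAGT, on both strands. The following stretches hold a match in capitals, for Ifit3, B2m, Ctss and Mylk to the interferon element and for C1qc to the PU.1 site. They are shown because they are the matches in genes that rose that end before the start, except a second one in Ifit3.
Ifit3 chr19:34583377-34583446 (+): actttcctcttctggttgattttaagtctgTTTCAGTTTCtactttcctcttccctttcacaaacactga
B2m chr2:122147518-122147587 (+): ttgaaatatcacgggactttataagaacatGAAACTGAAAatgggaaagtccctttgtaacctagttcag
Ctss chr3:95526735-95526785 (+): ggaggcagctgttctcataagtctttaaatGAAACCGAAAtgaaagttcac
Mylk chr16:34784713-34784782 (+): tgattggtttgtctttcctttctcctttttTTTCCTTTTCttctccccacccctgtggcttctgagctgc
C1qc chr4:136893072-136893139 (-): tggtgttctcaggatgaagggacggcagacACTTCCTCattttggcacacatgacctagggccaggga
The matches end 112, 129, 11, 197 and 187 bases before the start, in this order, and those of Ifit3, Mylk and C1qc lie on the opposite strand. The second match in Ifit3 ends 146 bases before the start. PU.1 matches that reach or lie past the start, not shown, were in Apbb1ip, Cd53, Ctss, Gusb and S100a4. The interferon element was found in 4 of 55 windows of the genes that rose (7.27%) and in 3.44% of all 32851 windows. The PU.1 site was found in 6 of 55 (10.9%) and in 3.2% of all windows. By gene, 4 of 47 (8.51%) held the interferon element, beside 3.89% of the array genes with a window, and 6 of 47 (12.8%) the PU.1 site, beside 3.3%. Ifit3, Apbb1ip, Cd53, Gusb and S100a4 entered the limma test only through the 110 day mutant array, so their place among the genes that rose is no independent evidence. These matches are descriptions of letters and not measured binding sites, and they were not tested.

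Reactive astrocyte genes were the other group with many risers. Serpina3n, encoding a secreted serine protease inhibitor of reactive astrocytes, read 466 and 2361 in G93A-SOD1, 326 and 334 in NM, and 353 and 422 in WT-SOD1 cord. It was above the disease-free range at 75 days and rose 5.07-fold from there (2.34 ± 0.19 SE, adjusted p = 0.000614). S100a6, a calcium-binding protein, read 230 and 1086 in G93A-SOD1, 150 and 112 in NM, and 128 and 184 in WT-SOD1 cord, and also started above the range (2.24 ± 0.28 SE, adjusted p = 0.00397). Cebpd, a transcription factor of inflammatory reactions, read 144 and 582.5 in G93A-SOD1, 81.9 and 106 in NM, and 107 and 134 in WT-SOD1 cord (2.02 ± 0.24 SE, adjusted p = 0.00332). Of 29 genes of this list on the array, 18 were tested (4 only through the 110 day mutant array), 9 rose (3 of those 4 among them) and 0 fell, with a median of 0.48 over the 29. Emp1, a membrane protein tested only through that array, rose from 52.4 to 190, Fabp7, a fatty acid carrier of glia, from 486 to 1176.5, and Igfbp2, which binds insulin-like growth factors, from 181 to 501.

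Gfap, the intermediate filament of astrocytes, did not pass the test. It read 2743 and 4442 in G93A-SOD1, 1617 and 1583 in NM, and 1596 and 2206 in WT-SOD1 cord. Both mutant arrays lay above all 4 disease-free ones, the 75 day array included. The difference between the mutant ages, 0.70 ± 0.23 SE, did not pass (adjusted p = 0.335), and WT-SOD1 cord had one of 0.47. Aqp4, the water channel of astrocyte endfeet, read 784 and 1309, against 496 to 765 on the disease-free arrays (0.74 ± 0.20 SE, adjusted p = 0.178). Of the 15 genes of the general astrocyte list, all were tested and 0 rose or fell (median 0.14), with 3 higher and 0 lower at an unadjusted p under 0.05. The glutamate transporter gene Slc1a2 had a difference of 0.19, and glutamine synthetase (Glul) one of -0.18.

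Several of the largest rises belong to genes outside these lists or in lists that otherwise stayed without calls. Hpgd, the enzyme that inactivates prostaglandins, read 41.5 and 256 in G93A-SOD1, 46.2 and 45.6 in NM, and 51.1 and 46.1 in WT-SOD1 cord. It was the lowest of the 6 arrays at 75 days and the highest at 110 days, a 6.16-fold rise (2.62 ± 0.18 SE), and it was tested only through the 110 day mutant array. Abca1, the exporter of cholesterol to apolipoproteins, read 69.1 and 231 in G93A-SOD1, 80.3 and 111 in NM, and 77.0 and 101 in WT-SOD1 cord, and was the only riser among 22 tested genes of the cholesterol and lipid synthesis list (adjusted p = 0.0105, list median -0.12). Cnn3, an actin-binding calponin, rose from 551 to 1669 (adjusted p = 0.00282), with 591 to 651 on the disease-free arrays. Among genes chosen after their values were seen, Mylk, the myosin light chain kinase, rose from 174 to 477, Nupr1, a stress-induced chromatin protein tested only through the 110 day mutant array, from 51.8 to 155, and A2m, a broad protease inhibitor, from 128 to 299. Plat, tissue plasminogen activator, rose from 254 to 554. Hbegf, an epidermal growth factor receptor ligand, rose from 132 to 293.

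Of 35 genes of neurons and synapses, 22 had lower and 13 higher values at 110 days in G93A-SOD1 cord, and 0 passed the test in either direction, while of all 8251 genes 3494 were lower and 3439 higher. At an unadjusted limma p under 0.05, 5 were lower and 2 higher, beside 128 lower and 335 higher of all 5199 tested genes. Nefm, the medium neurofilament chain, read 955 and 571 in G93A-SOD1, 940 and 1035 in NM, and 900 and 986 in WT-SOD1 cord. The 75 day mutant array was inside the disease-free range and the 110 day array below it, with a log2 difference of -0.74 ± 0.19 SE (limma adjusted p = 0.134). Nefh, the heavy chain, read 1197 and 862.5 in G93A-SOD1 cord and 1142 to 1556 on the disease-free arrays (-0.47 ± 0.23 SE, adjusted p = 0.589). The light chain Nefl went the other way, with 337 and 431. Of the 32 genes of the neurofilament and axonal cytoskeleton list, which holds Nefm, 30 were tested and 0 rose or fell. At 110 days 16 were lower and 15 higher, with a median of -0.004, beside 0.15 in NM and -0.002 in WT-SOD1 cord. Below 0 and below both disease-free differences lay 31.25% of them, beside 22% of all genes on the array. Among motor neuron genes, Slc18a3, the vesicular acetylcholine transporter, read 210 and 160 (-0.39), and the tyrosine kinase receptor Ret 60.2 and 71.8 (0.25). Of 13 motor neuron genes, 10 were tested and 0 rose or fell (1 lower at an unadjusted p under 0.05), with a median of -0.15, beside 0.07 in NM and 0.00 in WT-SOD1 cord.

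In the list of neurons and synapses, 31 of 35 genes were tested, 0 rose or fell, and the median was -0.11, beside 0.16 in NM and -0.07 in WT-SOD1 cord. The G93A-SOD1 difference lay below 0 and below both disease-free differences for 16 of the 35 (45.7%), and for 22% of all genes on the array. It lay above 0 and above both for 5 (14.3%), and for 23.3% of all genes. The summed intensity of the list was 23046 at 75 days and 20610 at 110 days, both below the disease-free range of 24363 to 27479. Sncb, encoding beta-synuclein, read 768 and 502 (-0.61), Chga, a secretory granule protein, 538 and 376 (-0.52), and the synaptic vesicle protein gene Syp 257 and 184 (-0.48). Scg3, another granule protein, and Syngr1, a vesicle protein, were higher at 110 days, at 1.01 ± 0.21 SE (adjusted p = 0.0614) and 0.94 ± 0.21 SE (adjusted p = 0.0901). Both started below the disease-free range.

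Inhibitory transmission genes had 17 of 19 tested (1 only through the 110 day mutant array), with 1 riser, that same gene, and 0 that fell, and a median of -0.14. The riser was Gabrg1, a GABA-A receptor subunit, which read 42.2 and 92.1 in G93A-SOD1, 76.2 and 66.6 in NM, and 71.4 and 63.9 in WT-SOD1 cord (1.12 ± 0.19 SE). It lay below all disease-free arrays at 75 days and above all of them at 110 days. The transporters Slc32a1 and Slc6a9, for vesicular GABA and glycine and for glycine uptake, had differences of -0.14 and -0.40.

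**Figure D4:**
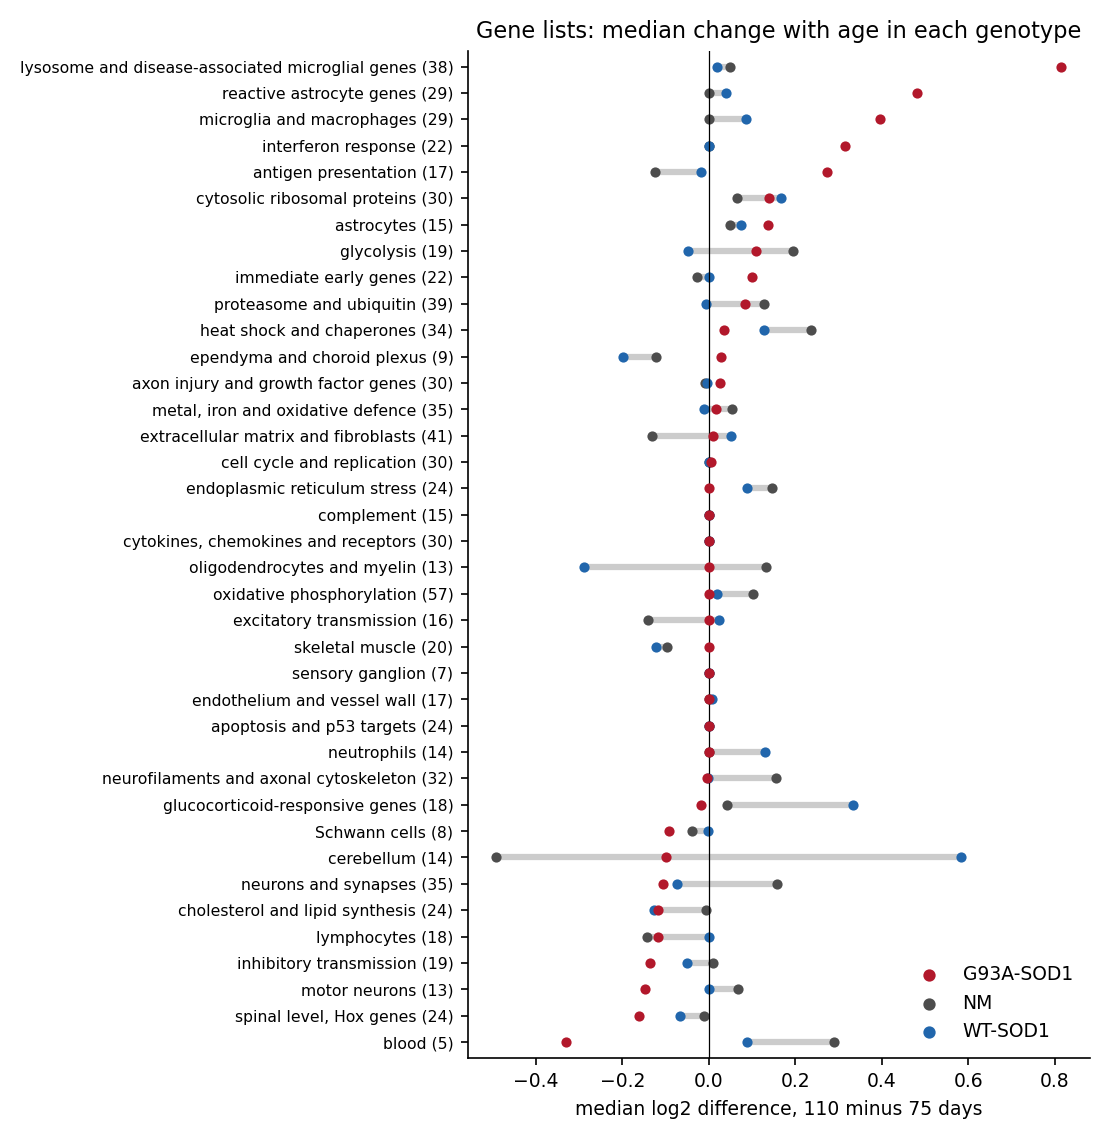
Median log2 difference between the 110 and 75 day arrays over the genes of each list on the array (number in brackets), for G93A-SOD1, NM and WT-SOD1 cord; the grey bar joins the disease-free genotypes. The lysosome and disease-associated microglial list has the highest G93A-SOD1 median, 0.82, and the blood list the lowest, -0.33.

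The 2 genes that fell were Dao and Coasy. Dao, D-amino acid oxidase, which degrades D-serine, read 209 and 108 in G93A-SOD1, 137 and 119 in NM, and 151 and 150 in WT-SOD1 cord. It was the highest of the 6 arrays at 75 days and the lowest at 110 days (-0.95 ± 0.19 SE, adjusted p = 0.0454). Coasy, an enzyme of coenzyme A synthesis, read 150 and 70.2 in G93A-SOD1 cord and 58.4 to 77.3 on the disease-free arrays (-1.10 ± 0.19 SE, adjusted p = 0.0227), so only the 75 day value stood out. Its probe set carries the suffix for reduced probe selection rules, and the other Coasy probe set had a log2 difference of -0.06. Nnat, encoding neuronatin, read 220 and 103 in G93A-SOD1, 212 and 191 in NM, and 293 and 207 in WT-SOD1 cord (-1.10 ± 0.24 SE, adjusted p = 0.0792). The calls of Dao and Coasy were also lost with the spread taken from NM against WT-SOD1 cord of the same age or from all 4 disease-free arrays.

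The 75 day values were also set against the disease-free arrays. Of the 79 probe sets that rose, 25 started above the range of the 4 disease-free arrays, 34 within it and 20 below it, and 78 ended above it. Among all tested probe sets, 23.9% of the 75 day values lay above that range, 34.7% below and 41.4% within, and of the 110 day values 16.9% lay above and 27% below. Of the 70 probe sets at least 1.5-fold lower at 110 days (0.564% of all), 64 started above the range, 38 ending within it and 22 below it. Among the 296 at least 1.5-fold higher, 88 started below it and ended above it, and 62 started below it and ended within it. Because a value that is extreme on 1 array is by selection part of such a difference, no test was made of these classes. Of the tested probe sets at least 1.5-fold lower, 22 of 48 (45.8%) had identifiers with a suffix that marks possible cross-hybridisation or reduced probe rules, beside 19.96% of all tested ones and 15.2% of the risers. Without such probe sets, 1 rather than 6 was at least 2-fold lower, and 69 rose.

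**Figure D5:**
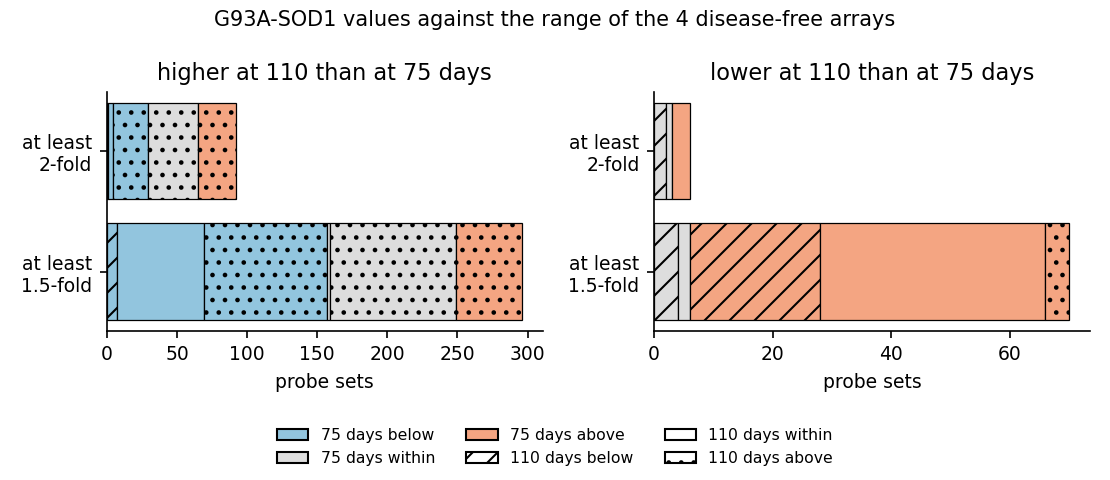
Probe sets at least 2-fold or 1.5-fold higher (left) or lower (right) at 110 days in G93A-SOD1 cord, by where the 75 day value (colour) and the 110 day value (hatching) lay against the range of the 4 disease-free arrays. Most probe sets that were 1.5-fold lower, 64 of 70, began above that range at 75 days.

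Whether the mutant change differed from the mean disease-free change was tested as an interaction in a second limma fit, whose spread comes from NM against WT-SOD1 cord of the same age. It gave 26 probe sets with a larger increase (0.386% of 6737), all among the 79 risers, and 2 with a lower change (0.0297%). With arrays scaled to 1 median, 1 with a larger and 1 with a lower change passed. The 23 genes with a larger increase (0.442% of 5199) included Lyz2, Hpgd, Tyrobp, Serpina3n, Cd68, Cst7 and the 3 C1q genes, and 11 of the 23 were tested only through the 110 day mutant array. They did not include S100a6 (adjusted p = 0.0928), Cebpd (0.0981), B2m (0.0657) or Gfap (0.973). The lower ones (0.0385%) were Hspa1b, encoding the inducible chaperone Hsp70, and Zbtb16, a transcriptional repressor. Hspa1b read 137 and 56.4 in G93A-SOD1, 64.7 and 282 in NM, and 54.4 and 252 in WT-SOD1 cord. It was thus high at 110 days in both disease-free cords and low in the mutant one (interaction -3.45 ± 0.23 SE, adjusted p = 0.00668), while its difference within the mutant did not pass (-1.28 ± 1.00 SE, adjusted p = 0.81). Zbtb16 read 233 and 173 in G93A-SOD1, 151 and 314 in NM, and 150 and 361 in WT-SOD1 cord.

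Markers of other tissues and cells were read for the same arrays. Of 18 lymphocyte genes, 6 of them tested, 0 were higher and 13 lower at 110 days in G93A-SOD1 cord. As background for these counts and those of red cell and Hox genes below, 3439 of all 8251 genes were higher and 3494 lower. The lymphocyte median was -0.12 in G93A-SOD1, -0.14 in NM and 0.00 in WT-SOD1 cord. Their summed intensity was 1780 at 75 and 1598 at 110 days in G93A-SOD1 cord (disease-free 1516 to 1671). Cd3g, Cd3d and Cd8a were at the floor on both G93A-SOD1 arrays. The 5 red cell genes were all lower at 110 days, with Hba-a1, an alpha-globin, at 4278 and 2798 (-0.61 ± 0.22 SE, adjusted p = 0.377) and 2968 to 3890 in disease-free cord. Neutrophil genes had a median of 0.00. Cerebellar genes summed to 5066 and 4444 on the G93A-SOD1 arrays and 6001 to 8303 on the disease-free ones. Their medians moved by -0.49 in NM and 0.58 in WT-SOD1 cord but by -0.10 in the mutant, so the disease-free spread for genes of this kind was wide. Skeletal muscle Acta1 read 89.0 and 170 in G93A-SOD1 cord and 52.5 to 448 on the disease-free arrays. Of 24 Hox genes of the spinal axis, 16 were lower and 7 higher at 110 days, with a median of -0.16 in G93A-SOD1, -0.01 in NM and -0.07 in WT-SOD1 cord. Of these, 12 were tested and 0 rose or fell by limma (0 at an unadjusted p under 0.05). Below 0 and below both disease-free differences lay 10 of the 24 (41.7%), beside 22% of all genes on the array. The part of these tissue markers in the results was not tested. The lists of myelin (median 0.00), oxidative phosphorylation (0.00), ribosomal proteins (0.14), endoplasmic reticulum stress (0.00), apoptosis (0.00) and cell cycle (0.00) had 0 risers and 0 genes that fell by limma. At an unadjusted p under 0.05 these 6 lists had 0, 2, 2, 1, 3 and 1 genes higher and 0, 1, 0, 0, 0 and 0 lower, in this order.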

How the data were processed

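Poly(A) RNA of 4 pooled spinal cords per genotype and age was measured on 6 Affymetrix arrays. The authors deposited intensities on a linear scale, 1 for each probe set on each array, and their probe summary and scaling are not given in the sources used here. Intensities were used without further scaling, those below the 25th percentile of all values (31) were set to 31, and all were converted to log2. Testing needed 1 or more arrays above the median of all values, 79.7, and 6737 of 12422 probe sets met this. R 4.3.3 and limma 3.58.1 (lmFit, eBayes) were used with Benjamini-Hochberg adjustment at 0.05. The main fit had a mean for NM, a mean for WT-SOD1 and 1 for each G93A-SOD1 array, with 2 residual and 7.70 prior degrees of freedom (prior standard deviation 0.14, median SE 0.19). The lone G93A-SOD1 arrays are assumed to vary like the disease-free ones. The interaction fit had a mean for disease-free cord at each age (2 residual and 5.13 prior degrees of freedom). Depth has no meaning for arrays, and their number limits the precision. SE is the moderated standard error.

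Symbols came from the platform annotation, checked against a RefSeq table: 10833 probe sets had 1 symbol, 396 several and 1193 none, and 10817 matched. The probe set with the highest mean stands for its gene. The 38 gene lists, the comparison and its tests were chosen with earlier results of these data known. Named genes are Sod1, the 15 genes farthest above and 10 farthest below 0 and both disease-free differences, up to 5 that rose at least 2-fold from below or fell from above the disease-free range, and per list at most 4 calls, or 2 values in a list without calls. Other genes were chosen after their values were seen. The fits were tested on simulated data. Alternatives covered the floor, scaling, filter, spread, arrays left out and probe set rules.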

Additional observations from a re-analysis of the deposited data

Results flagged for a closer look

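For 25 genes the change from 75 to 110 days in G93A-SOD1 cord differed from the mean change in NM and WT-SOD1 cord by limma's interaction test, with adjusted p-values between 0.00668 and 0.0492. Of the 23 with a larger increase, 11 entered the test only through the 110 day G93A-SOD1 array, where they had to be high (Cd53, Cst7, Ctsz, Emp1, Gusb, Hpgd, Ifit3, Lgals3, Lyz2, Mdfic and Rhoj), so for these the test is no independent evidence. Values are the G93A-SOD1 difference minus the mean disease-free difference on the log2 scale. Among microglial and macrophage genes it was 2.82 for Lyz2, 2.13 for Mpeg1, 2.08 for Tyrobp, 2.05 for Cd52, 2.01 for Cd68 and 1.63 for Cd53, a tetraspanin of leukocytes. The C1q genes gave 1.97 (C1qb), 1.86 (C1qc) and 1.85 (C1qa). Lysosomal genes and galectins gave 2.14 for Cst7, 1.71 for Ctsz, 1.42 for Lgals3, 1.34 for Lgals1 and 1.29 for Gusb. Serpina3n gave 2.19 and Emp1 1.85, and the interferon-induced gene Ifit3 1.40. Outside these groups Hpgd gave 2.71, Cnn3 1.51, Mylk 1.43, Rhoj, a small GTPase, 1.33, Mdfic 1.33 and Hbegf 1.29. The 2 with a lower change were Hspa1b at -3.45 and Zbtb16 at -1.59. For both of these genes NM and WT-SOD1 cord were higher at 110 than at 75 days, while the mutant cord was lower. With arrays scaled to 1 median, 1 gene or unnamed probe set with a larger and 1 with a lower change passed.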

How the results depend on the processing

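No compared value turned its direction once called. No paired analysis by replicate number was possible because the labels give none and each group has 1 array, so ages were paired only within NM and WT-SOD1. The cause was not tested for any change below. Of the 79 probe sets up and 2 down in G93A-SOD1 cord, the counts were 27 and 0 with the floor at the 40th percentile, 51 and 0 after scaling arrays to 1 median, and 47 and 54 with no filter on level, where 25 of 27 named calls were lost. With the spread from NM against WT-SOD1 of the same age 1 was down, and with that from all 4 disease-free arrays 0. Dao, Coasy and H2-K1 passed with neither. Added after seeing the data, a filter that ignores the 110 day G93A-SOD1 array gave 43 up and 1 down, and leaving out suffixed probe sets 1 down. Without the NM or WT-SOD1 arrays, where 1 pair gives the spread, 131 (without WT-SOD1) to 164 (without NM) were up and 10 to 15 down, and 0 of 27 named calls were lost. Of the 26 interaction calls up and 2 down, there were 2 and 1 with the higher floor, 1 and 1 with 1 median, 14 up with a filter on the mean level, 67 up with genotype as a block and 41 down with no filter. Leaving out 1 disease-free array in turn gave 47 to 124 up and 4 to 11 down, with 47 without WT-SOD1 at 75 days, 56 without NM at 75 days, 77 without WT-SOD1 at 110 days and 124 without NM at 110 days. In place of 92 probe sets higher and 6 lower at 2-fold, 296 and 70 were so at 1.5-fold, 27 and 0 at 3-fold, and 1 was lower without suffixed probe sets. Of the classes at 2-fold, those that started and ended above the disease-free range numbered 27, or 47 at 1.5-fold and 42 against the range of the same age. Those from within to above numbered 36, or 90 and 14, and those from below to above 25, or 88 at 1.5-fold. Lower ones that started above numbered 3, or 64 at 1.5-fold, and those from within to below 2, or 4 at 1.5-fold and 1 with the higher floor. Signal near the floor limits what can be seen: changes below 31 leave no value.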
